A study of Mus musculus with 6 samples.

Results

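Of the 32285 genes counted in dissociated mouse amygdala, 9 are described here, chosen by name as genes of synaptic and neural adhesion: Ctnna2, Luzp2, Nlgn1, Nlgn2, Nlgn3, Cadm2, Lsamp, Ntm and Nrcam. They were proposed after their levels in these cells had been seen, so the contrasts that led to their choice are given as descriptions without a test. The study asked how fear experience changes astrocytes of the amygdala. Cells of young adult male wild-type C57BL/6N mice were collected 90 min after behaviour began, dissociated with actinomycin D, triptolide and anisomycin to hold back new transcription and translation, stained with 1 hashtag antibody per mouse and sorted with ACSA2, an antibody to the astrocyte surface protein ATP1B2. The sorted cells were pooled into 3 single-cell libraries, each with its own hashtag library, and the labels describe every library as astrocytes. The 4 groups were NoFC mice, which were not fear conditioned, FC mice, taken after fear conditioning, NoFR mice, which were conditioned and not brought to recall, and FR mice, taken after fear recall. By the paper, FC mice were taken on the day of conditioning, and NoFR and FR mice a day after it. Mice were habituated to the conditioning chamber on the days before, and NoFC mice were placed in it without shocks on the day of conditioning. NoFR mice stayed in their home cages instead of recall. Contrasts of NoFR or FR mice with FC mice therefore also differ in the time since conditioning. Those with NoFC mice also differ in the day of the experiment. NoFR mice further differ from the other groups in not entering the chamber on that day. All 4 groups were wild type and went through the same dissociation and sort. The deposited hashtag table lists 16 mice, 4 per group: 2 mice of every group went into library 1, whereas library 2 had no NoFR mouse (2 FC, 1 FR, 1 NoFC) and library 3 had no FC mouse (2 NoFR, 1 FR, 1 NoFC).

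Adhesion molecules hold pre- and postsynaptic membranes, and the fine astrocyte processes around them, in contact with each other. Neuroligins are postsynaptic membrane proteins that bind presynaptic neurexins, and astrocytes also use them to grow their branched processes. IgLON proteins such as Lsamp and Ntm are anchored in the outer membrane leaflet by a lipid and bind one another between cells, Cadm2 and Nrcam are immunoglobulin-domain proteins that span the membrane, and Ctnna2 ties cadherins to the actin cytoskeleton. Luzp2 encodes a leucine zipper protein that is grouped with the adhesion genes here by the choice of members alone.

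The genes were long in most cases and lie on 8 chromosomes. In GENCODE's GRCm38 annotation Lsamp (ENSMUSG00000061080) spans 2197.3 kb at chr16:39984361-42181679 on the plus strand, and Cadm2 lies on the minus strand of the same chromosome at chr16:66655421-67620908. Ctnna2 spans 1098.1 kb at chr6:76881637-77979699 on the minus strand, and the leucine-rich repeat gene Lrrtm1 lies inside it on the opposite strand. Nlgn2 and Nlgn3 are the shortest members, with 14.7 kb at chr11:69823122-69837784 and 26.8 kb at chrX:101299168-101325963. Luzp2 lies at chr7:54835498-55268885, Nlgn1 at chr3:25426215-26332460, Ntm at chr9:28994750-29963141 and Nrcam at chr12:44328885-44601964. The counts were made with Cell Ranger, and its strand setting is not stated in the sources at hand. Reads of a member and of a gene on its other strand may therefore not be separable. Annotated genes also overlap members on the same strand, 9 for Ctnna2, 5 for Lsamp and 4 for Luzp2, and the same holds for their reads. Because UMI counts per gene depend on the gene's structure, levels of different genes are not ranked. A ratio between genes is read only as it differs between cell classes.

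RefSeq promoter windows, the 250 bases before a listed start in GRCm38.p6, were at hand for 8 of the 9 members and 11 starts (Nlgn1, Lsamp and Ntm had more than 1 start). Those of the members that the results turn on are shown 5′ to 3′ with CpG dinucleotides in capitals: Ctnna2 (chr6:77979668-77979917, minus strand), Luzp2 (chr7:54834995-54835244, plus strand), Lsamp at its upstream start (chr16:39984114-39984363, plus strand) and Nlgn2 (chr11:69837785-69838034, minus strand), the member whose level did not separate the cell classes.
Ctnna2: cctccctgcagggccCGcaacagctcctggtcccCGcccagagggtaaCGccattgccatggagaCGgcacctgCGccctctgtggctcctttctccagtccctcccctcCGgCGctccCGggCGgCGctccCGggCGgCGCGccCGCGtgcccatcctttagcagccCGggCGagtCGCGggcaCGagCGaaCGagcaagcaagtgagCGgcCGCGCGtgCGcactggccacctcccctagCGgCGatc
Luzp2: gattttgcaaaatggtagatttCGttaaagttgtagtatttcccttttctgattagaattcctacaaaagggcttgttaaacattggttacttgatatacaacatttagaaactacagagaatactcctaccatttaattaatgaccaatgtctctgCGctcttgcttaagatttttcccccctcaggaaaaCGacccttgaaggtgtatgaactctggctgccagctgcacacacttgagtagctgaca
Lsamp: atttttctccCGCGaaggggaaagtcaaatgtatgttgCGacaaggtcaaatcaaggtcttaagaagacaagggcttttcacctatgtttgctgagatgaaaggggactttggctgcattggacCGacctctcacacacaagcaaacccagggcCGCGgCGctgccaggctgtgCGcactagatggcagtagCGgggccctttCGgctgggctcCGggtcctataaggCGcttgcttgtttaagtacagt
Nlgn2: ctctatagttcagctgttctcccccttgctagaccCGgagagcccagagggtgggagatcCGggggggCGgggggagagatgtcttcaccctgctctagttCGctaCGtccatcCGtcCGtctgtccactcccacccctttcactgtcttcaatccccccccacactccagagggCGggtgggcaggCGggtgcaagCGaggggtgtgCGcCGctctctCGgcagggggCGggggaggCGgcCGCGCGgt
The Ctnna2 window held 30 CpGs and 73.2% GC, and the Nlgn2 window held 18 CpGs and 67.6% GC. The Luzp2 window held 3 CpGs and 38.4% GC, and the Lsamp window held 12 CpGs and 53.2% GC. The median over 32536 windows of all genes was 6 CpGs and 52.4% GC, so Ctnna2 and Nlgn2 lay above it on both measures and Luzp2 below it on both. The RefSeq start of Luzp2 lies upstream of its GENCODE gene, and a short stretch after it was not found in GENCODE transcripts of Luzp2. Read on both strands, the CCAAT box (CCAAT or ATTGG) was present in 5 of the 11 member windows against 33.81% of all windows, and the NFI half-site (TTGGC or GCCAA, which shares letters with ATTGG in ATTGGC) in 3 of 11 against 41.64%. The TATA box letters (TATAAA or TTTATA) were in none of the 11 windows against 12.31% of all windows. These matches describe letters in a window and no binding was measured.

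Barcodes were classed by their own transcripts. An astrocyte had at least 20 UMIs (counted RNA molecules) of the glutamate transporter genes Slc1a2 and Slc1a3 together and at most 3 of the pericyte genes Vtn and Rgs5, and a pericyte, a contractile cell of the capillary wall, had at least 10 UMIs of Vtn and Rgs5 and at most 5 of Slc1a2 and Slc1a3. Of 13546 barcodes, 8757 were astrocytes by this rule (2503 to 3557 per library), 2260 were pericytes (664 to 880), 101 carried both signatures and 2428 neither. The 3 libraries held 31700569 to 42350059 gene UMIs, the median astrocyte had 9891 UMIs and the median pericyte 5006, and pairs of libraries shared 3 to 8 barcode sequences. Markers outside the rule followed the classes: 10 astrocyte markers summed to 6234 to 6312 CPM (the UMIs of a gene per 1000000 UMIs of its class and library) in astrocytes and 67.5 to 101 in pericytes, where Gfap was at 0, and 6 pericyte markers summed to 6890 to 7096 in pericytes and 110 to 121 in astrocytes. Markers of neurons were low in astrocytes, at 10.1 to 14.2 CPM for 6 genes, and no barcode passed as a neuron, microglial cell or oligodendrocyte.

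In this sort 8 members were higher in astrocytes than in pericytes and 1 was not. Ctnna2, Luzp2, Nlgn1, Nlgn3, Cadm2, Lsamp, Ntm and Nrcam were each at least 2-fold higher in astrocytes than in pericytes in every library, a pattern that 16.9% of 11439 genes showed and 20.5% showed in the opposite direction. The median log2 ratio of the 9 members was 6.89 and that of all genes was -0.24. The classes were cut from measured genes and the members were chosen with these values known, so nothing is read from that share.

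Luzp2 was among the members with the widest gap. It stood at 4565, 4276 and 4019 CPM in the astrocytes of libraries 1, 2 and 3 and at 25.1, 18.4 and 29.8 CPM in the pericytes, a log2 ratio of 7.48 ± 0.39 (SD, n = 3 libraries). Nrcam, a cell adhesion molecule of the L1 family that clusters channels on axons and is present at astrocyte contacts with synapses, was at 851, 863 and 844 CPM in astrocytes against 6.56, 3.39 and 5.37 CPM, a log2 ratio of 7.44 ± 0.50. Ctnna2, the neural form of alpha-catenin, was at 674, 759 and 707 CPM against 7.24, 3.67 and 6.44 CPM, log2 ratios of 6.54, 7.69 and 6.78. The pericyte values of Ctnna2 and Nrcam rest on 69 and 61 UMIs in all, and for these 3 genes every astrocyte value lay at least 93.0-fold above the pericyte value of the same library.

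The neuroligins did not share a pattern. Nlgn1, which is found at excitatory synapses, was at 1738, 1853 and 1829 CPM in astrocytes and at 14.9, 13.3 and 17.4 CPM in pericytes, a log2 ratio of 6.90 ± 0.21. Nlgn3, found at excitatory and inhibitory synapses, was at 70.2, 75.8 and 76.2 CPM against 2.04, 0.848 and 1.61 CPM (18 UMIs), a log2 ratio of 5.72 ± 0.70. Nlgn2, the neuroligin of inhibitory synapses, was at 27.0, 27.5 and 27.3 CPM in astrocytes and at 31.0, 37.6 and 39.2 CPM in pericytes, a log2 ratio of -0.39 ± 0.17. Pericytes thus held the higher Nlgn2 level in every library, by 1.31-fold on average, but with TMM scaling, which moved the median of all genes by 0.29 on the log2 scale, the mean log2 ratio of Nlgn2 was -0.11 and the libraries ranged from -0.24 to 0.07, so the direction did not hold in every library under that scaling. Relative to that median of -0.24 the Nlgn2 difference was small, and Nlgn2 was the only member outside the 2-fold threshold, the nearest inside it being Lsamp.

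Among the immunoglobulin-domain genes the pericyte level differed. Cadm2, a synaptic cell adhesion molecule, was at 3148, 3307 and 3285 CPM in astrocytes and at 30.8, 26.0 and 25.8 CPM in pericytes, a log2 ratio of 6.89 ± 0.18. Ntm, neurotrimin, was at 4801, 5064 and 4965 CPM against 116, 102 and 117 CPM, a log2 ratio of 5.47 ± 0.14. Lsamp, the limbic system associated membrane protein, was at 11216, 11958 and 11711 CPM against 1070, 1053 and 1092 CPM, a log2 ratio of 3.44 ± 0.06. Lsamp was thus 10.8-fold higher in astrocytes with little spread over libraries, and its gap was the smallest of the 8 members that passed the fold.

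**Figure D1:**
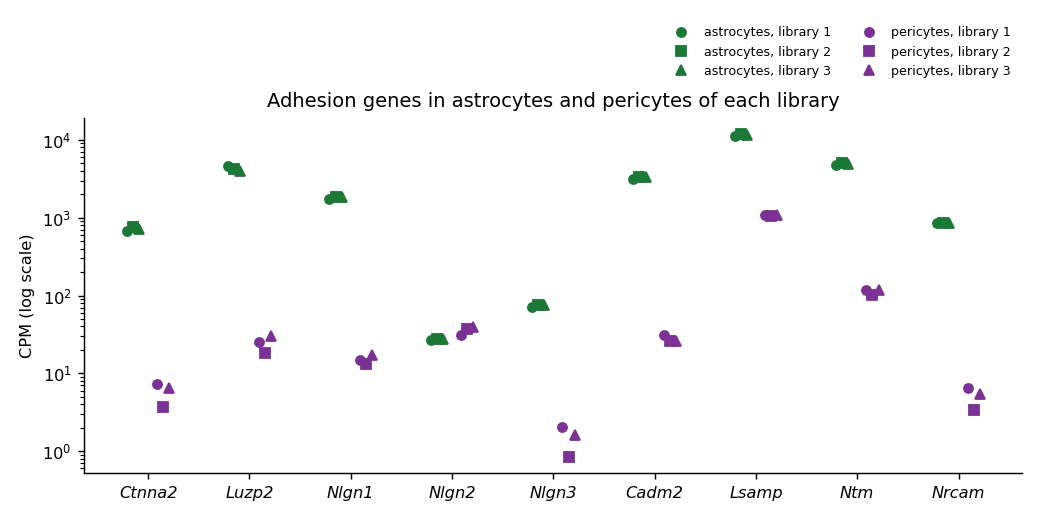
UMI level in CPM (log axis) of the 9 members in astrocytes and pericytes, with 1 symbol per library. Astrocyte and pericyte symbols are far apart for 8 members, with Lsamp at 1053 to 1092 in pericytes, and lie next to each other for Nlgn2.

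The share of cells with at least 1 UMI, as the mean of the 3 libraries, followed the levels. Luzp2 was seen in 99.0% of astrocytes and 11.5% of pericytes, Ctnna2 in 83.5% and 2.71%, Nrcam in 95.9% and 2.58%, and Nlgn1 in 96.4% and 7.01%. Lsamp was seen in 99.1% of astrocytes and in 89.6% ± 0.939 (SD, n = 3 libraries) of pericytes. With every cell thinned to 3727 UMIs (8064 astrocytes and 1852 pericytes deep enough), the Lsamp shares were 99.7% and 87.8%, and those of Ntm were 99.4% and 27.5% (98.5% and 34.3% before thinning). For Nlgn2 the thinned shares were 9.81% and 12.1% and the unthinned shares 23.0% and 16.3%, so the class with more positive cells changed with depth. The astrocyte markers Aqp4, Gja1 and Aldoc were seen in 2.60%, 7.20% and 11.2% of pericytes. The transporter genes of the rule, which it caps in pericytes, were seen in 32.1% (Slc1a2) and 34.9% (Slc1a3). The Lsamp share lay above all 5 of these genes, the Ntm share was about that of the transporter genes, and the Ctnna2 and Nrcam shares were close to that of Aqp4. A share also depends on a gene's level, and these levels were unlike. In astrocytes Lsamp was at 11628 and Ntm at 4943 CPM, against 569, 1580 and 1935 CPM for Aqp4, Gja1 and Aldoc. The part of free astrocyte RNA in these shares was not tested.

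Set against the astrocyte level of the same library, the pericyte level of Lsamp was 9.54%, 8.80% and 9.33%, and that of Ntm was 2.42%, 2.01% and 2.35%. The 10 astrocyte markers that the class rule did not use lay between 0% (Gfap) and 2.12% (Mlc1) with a median of 1.22%. Luzp2, Nrcam, Ctnna2, Nlgn1 and Cadm2 were at 0.574%, 0.600%, 0.823%, 0.844% and 0.850%. They lay above Gfap and below every other marker, of which Aqp4 was the lowest at 0.937%. By the means of the 3 libraries, Lsamp lay above every marker, Ntm just above the highest, and Nlgn3 (2.05%, on 18 pericyte UMIs) just below it. In library 2, however, Ntm at 2.01% was below Mlc1 at 2.16%. In the 975 pericytes with no Slc1a2 or Slc1a3 UMI, a subset formed after the data were seen, Lsamp was at 1099 ± 60.6 CPM (SD, n = 3 libraries) or 9.45% of the astrocyte level, while the markers spanned 0% to 1.74%.

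Ratios between members within a class differed in the same way. Lsamp stood at 2.46 to 2.91 times the Luzp2 level in astrocytes and at 36.7 to 57.3 times it in pericytes, across the 3 libraries. In the 2428 barcodes that met neither rule, whose median was 720 to 870 UMIs per library, that ratio was 3.50 to 4.22, and in the 101 barcodes with both signatures it was 2.33 to 4.19. In this ratio the shallow barcodes lay nearer to astrocytes than pericytes did, though above the astrocyte range. Lsamp per Cadm2 was 3.67 to 4.13 in them, 3.56 to 3.62 in astrocytes and 34.8 to 42.4 in pericytes. Lsamp per Ntm was 1.53 to 1.88, 2.34 to 2.36 and 9.20 to 10.3 in the same order. The cause of these differences was not tested. Nlgn2 again stood apart from the other members, because its level in the shallow barcodes, 64.2 ± 2.42 CPM, was 235% of its astrocyte level while the other 8 members were at 35.1% (Luzp2) to 76.4% (Ctnna2).

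**Figure D2:**
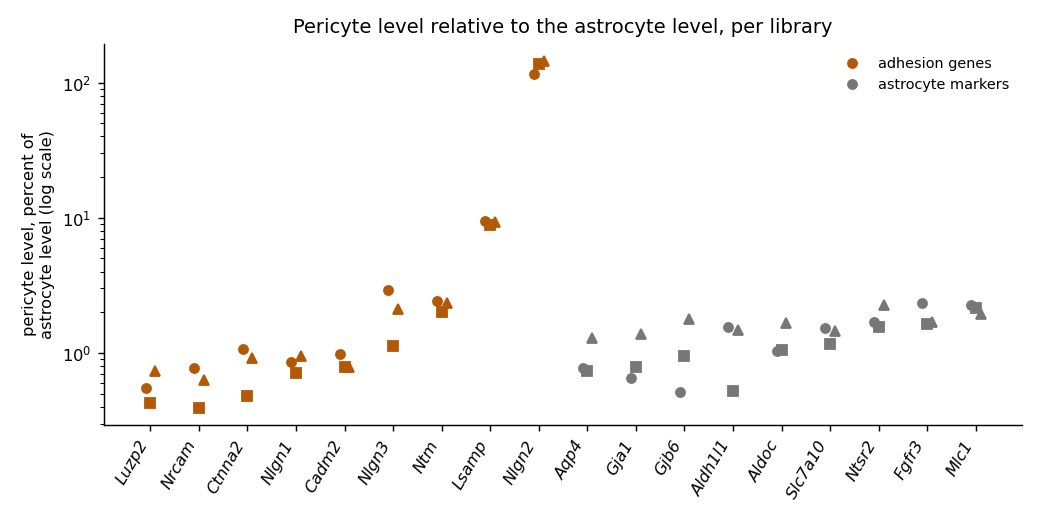
Pericyte level as a percent of the astrocyte level (log axis) for the members and the astrocyte markers that the class rule did not use, with circles, squares and triangles for libraries 1, 2 and 3 and Gfap, at 0, not drawn. Lsamp at 8.80 to 9.54% and Nlgn2 at 115 to 144% lie above all markers.

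Within astrocytes, Luzp2 and Ctnna2 were lower where Agt was high. Agt encodes angiotensinogen, which astrocytes secrete and whose level differs between astrocyte populations, and astrocytes were divided into 3236 with at least 3 Agt UMIs, 2708 with 1 or 2, and 2813 with 0. Luzp2 was at 3152 ± 151 CPM in Agt-high and 5382 ± 271 CPM in Agt-0 astrocytes (SD, n = 3 libraries), with 4728 CPM in between, and its log2 ratio was -0.73, -0.83 and -0.76 in libraries 1, 2 and 3. Luzp2 was the only member at least 1.5-fold different in every library, lower in Agt-high cells, and no member was higher. Over 10865 genes that threshold was passed by 2.04% downwards and 1.16% upwards. This split was also in view when the members were chosen, so it is a description.

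Ctnna2 was next to that threshold. It was at 590 ± 63.4 CPM in Agt-high and 910 ± 74.3 CPM in Agt-0 astrocytes, with 692 CPM in between, and log2 ratios of -0.60, -0.56 and -0.72, of which library 2 fell just short of 1.5-fold. Lsamp was at 10323 against 13410 CPM (log2 ratio -0.37), Ntm at 4632 against 5492 CPM (-0.24) and Cadm2 at 3142 against 3500 CPM (-0.15), each lower in all 3 libraries. The remaining members were even between the 2 kinds of astrocyte or tilted the other way: Nrcam at 0.02, Nlgn2 at -0.03 and Nlgn1 at -0.13 on the log2 scale each changed sign between libraries. Nlgn3 was higher in Agt-high cells in every library, at 80.7 ± 2.67 against 62.3 ± 3.34 CPM, with 76.3 CPM in between and a log2 ratio of 0.38 ± 0.04.

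**Figure D3:**
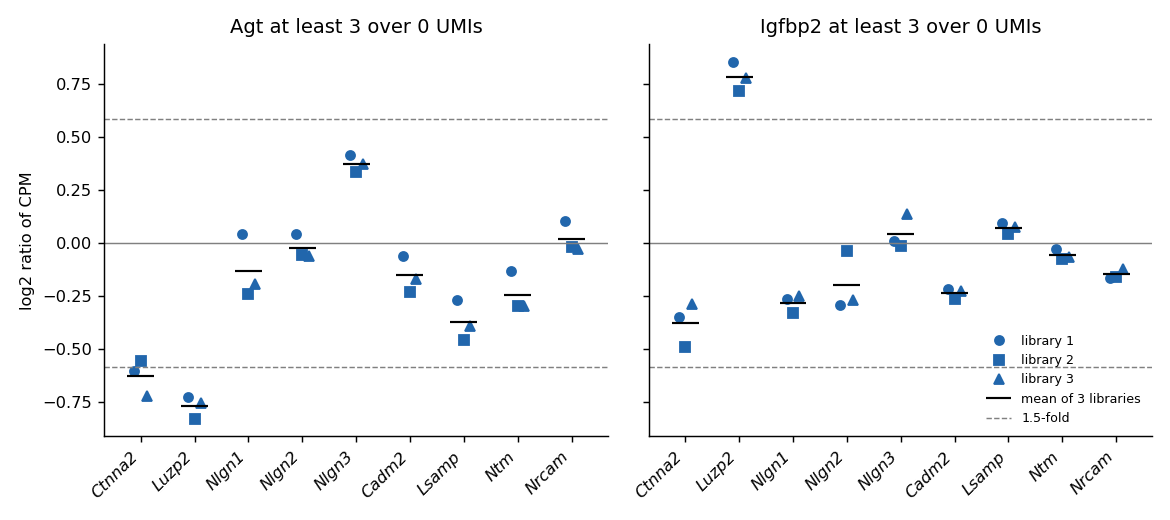
log2 ratio of CPM between Agt-high and Agt-0 astrocytes (left) and between Igfbp2-high and Igfbp2-0 astrocytes (right) for each member, with points for the 3 libraries, black bars for their mean and dashed lines at 1.5-fold. Luzp2 lies beyond a dashed line in both panels, lower in Agt-high and higher in Igfbp2-high cells, and Ctnna2 straddles the line at left.

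Other features moved with the Agt split. Progenitor markers (4 genes) summed to 163 to 245 CPM in Agt-0 and 13.7 to 18.9 CPM in Agt-high astrocytes, all 4 detected in both, and 6 neuron markers to 18.3 to 30.9 against 7.66 to 8.13 CPM. The 10 astrocyte markers summed to 4961 to 5411 CPM in Agt-0 and 6675 to 6959 CPM in Agt-high cells, and the median depth was 8936 against 10306.5 UMIs. Without the 45 Agt-0 barcodes that held at least 10 UMIs of Sox11 and Dcx, genes of immature neurons, the log2 ratio was -0.84 for Luzp2 and -0.57 for Ctnna2. Among astrocytes of 8000 to 14000 UMIs, with medians of 10568 and 10565 UMIs, it was -0.95 for Luzp2 and -0.56 for Ctnna2, and both of these subsets were formed after the data were seen.

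Luzp2 was higher where Igfbp2 was high. Igfbp2 encodes a secreted binding protein of insulin-like growth factors, and 1225 astrocytes had at least 3 of its UMIs against 6323 with 0. Luzp2 was at 6073 ± 498 CPM in the former and 3522 ± 185 CPM in the latter, with log2 ratios of 0.86, 0.72 and 0.78, and was the only member past 1.5-fold in either direction. Of 10803 genes, 1.94% were past it upwards and 2.01% downwards. Ctnna2 was lower, at 587 against 762 CPM (log2 ratio -0.38), as were Nlgn1 at 1563 against 1901 CPM (-0.28) and Cadm2 at 2861 against 3370 CPM (-0.24), all 3 in every library. The Igfbp2-high cells were deeper, with a median of 12841 against 9179 UMIs, and at 8000 to 14000 UMIs the ratios were 0.70 for Luzp2 and -0.59 for Ctnna2. Without the barcodes of at least 10 UMIs of Sox11 and Dcx, the ratios were 0.75 for Luzp2 and -0.34 for Ctnna2. Both subsets were formed after the data were seen. When cells were divided in the same way by Gfap, the intermediate filament gene of reactive astrocytes, 0 of 9 members passed 1.5-fold, against 0.425% of 10826 genes upwards and 0.554% downwards.

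With cells divided by Agt and Igfbp2 jointly, Luzp2 and Ctnna2 had different patterns. Luzp2 was lowest in the 2716 astrocytes with Agt high and Igfbp2 at 0, at 2627 ± 186 CPM. It was at 4697 ± 352 CPM in the 1875 with both at 0, at 5755 ± 422 CPM in the 264 with both high, and at 6399 ± 448 CPM in the 439 with Agt at 0 and Igfbp2 high. Among Igfbp2-0 cells the Agt-high level was therefore below the Agt-0 level in every library, and among Igfbp2-high cells it was below it in every library too, by a smaller step. Ctnna2 showed 1 high class instead, at 1058 ± 78.0 CPM with both genes at 0 against 653 ± 61.6, 593 ± 59.7 and 570 ± 46.0 CPM in the other 3 classes. Lsamp was highest with both genes at 0, at 13601 CPM, lowest with Agt high and Igfbp2 at 0, at 9947 CPM, and at 12019 and 11966 CPM in the other classes. Depth differed as well, with a median of 7737 UMIs where both genes were at 0 and 14390.5 where both were high. Its part in these levels was not tested beyond the depth range above. Astrocytes with at least 10 UMIs of Sox11 and Dcx, of which 45 had Agt at 0 and 0 had Agt high, were kept here. All barcodes past that cut together held Ctnna2 at 1508 CPM and Luzp2 at 188 CPM. Their part in the joint classes was not tested.

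**Figure D4:**
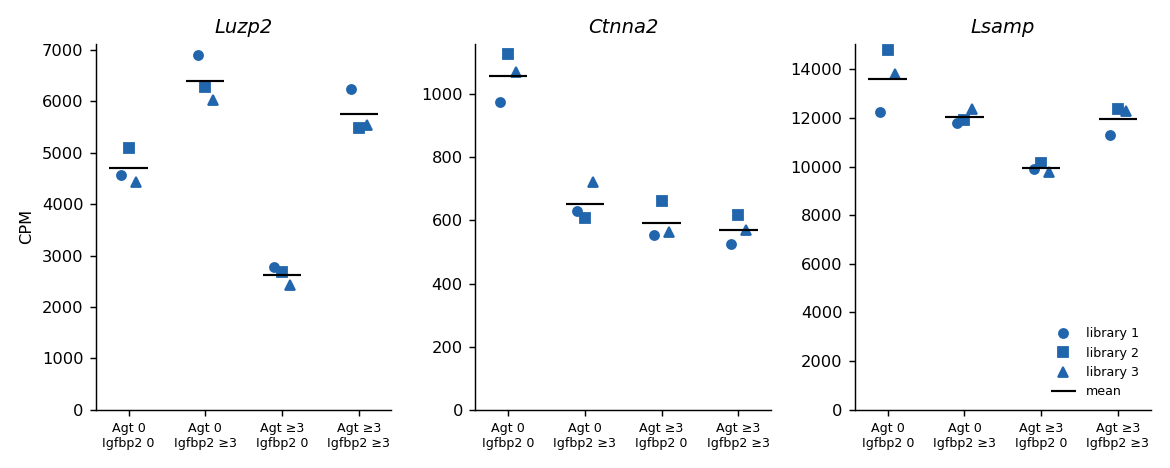
CPM of Luzp2, Ctnna2 and Lsamp in astrocytes divided by Agt (0, or at least 3 UMIs) and Igfbp2 (0, or at least 3 UMIs), with a symbol per library and a black bar for the mean. Luzp2 is lowest at 2627 where Agt alone is high, and Ctnna2 is highest at 1058 where both are 0.

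Cell to cell, Luzp2, Ctnna2, Lsamp and Nlgn1 varied more than the median gene of like level. In astrocytes thinned to 3727 UMIs the variance was 9.25 times the mean for Luzp2, against a median of 4.48 for genes of like mean, and 3.43 against 1.77 for Ctnna2. For Lsamp it was 11.9 against 8.90, with as few as 5 genes at its level in a library, and for Nlgn1 3.10 against 2.48. Luzp2 had as few as 13 genes at its level in a library. Nrcam and Ntm were more even than such genes, at 1.49 against 1.93 and 4.37 against 4.89, with as few as 6 genes for Ntm. Cadm2 was close to such genes, at 3.91 against 4.02, and Nlgn2 and Nlgn3, both low, were at 1.04. Over the same 8064 thinned astrocytes, which share their libraries and depth, Spearman correlations between the 36 pairs of members had a median of 0.12 and a range of -0.01 to 0.61. Nlgn2 and Nlgn3 averaged only 0.101 to 0.108 and 0.262 to 0.303 UMIs per thinned cell, and none of their pairs exceeded 0.033. Gene pairs of like level were not compared. The closest pairs were Cadm2 with Lsamp (0.61), Lsamp with Ntm (0.60) and Cadm2 with Ntm (0.50), and Luzp2 correlated at -0.38 with Agt and 0.26 with Igfbp2.

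Across 12 sums of 4 barcode classes (the 3 Agt classes of astrocytes and the pericytes) in 3 libraries, each member was matched to the 2 genes, of 9805, whose log2(CPM + 1) followed it most closely by Pearson's r. These were Egfem1 and Emx2os for Ctnna2, Gldc and Gm2115 for Luzp2, Dhtkd1 and Plcb1 for Nlgn1, 2900052N01Rik and Hepacam for Nlgn3, Dtna and Gpc5 for Cadm2, Frmd4a and Mertk for Lsamp, Tox and Grid1 for Ntm and Npas3 and Gm11266 for Nrcam, each with r of at least 0.999. Such values come mostly from the step between astrocytes and pericytes that the sums share. Nlgn2 was followed by Spice1 (0.946) and Setd1b (0.942), and its r with the other 8 members lay between -0.87 and -0.85.

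The few progenitor-like barcodes had another profile. At least 10 UMIs of Sox11 and Dcx were held by 50 barcodes, 48 of them within the astrocyte rule, with a median of 29790.5 UMIs. Ctnna2 was at 1508 CPM in them (1495 to 1540 over libraries), above its astrocyte level of 713 ± 43.3 CPM. The other 7 members that separated astrocytes from pericytes were lower than in astrocytes, among them Luzp2 at 188 CPM, Lsamp at 989 CPM, Ntm at 258 CPM and Nrcam at 169 CPM. These barcodes were selected by 2 measured genes, with 9 to 25 of them per library.

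Between behavioural groups, mice were compared by summing the counts of each mouse's cells. A cell was given to a mouse when its top hashtag had at least 10 UMIs and at least 3 times the next. Hashtags labelled pericytes far better than astrocytes: 446 astrocytes (5.09%) and 1562 pericytes (69.1%) had such a hashtag, and 335 and 1024 of these belonged to a listed mouse. The astrocyte test thus held 11 mice with at least 5 cells (2 FC, 3 FR, 2 NoFC, 4 NoFR), with 159 cells in FC mouse 1 and 5 to 46 in the others, and both FC mice in library 1. The pericyte test held all 16 mice with 36 to 110 cells each.

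No member was called between any 2 groups in astrocytes. The filter on low counts passed 8 members (Nlgn2 did not), and 0 of 8 had an adjusted p under 0.05 in any of the 6 pairs of groups by edgeR's quasi-likelihood test with the library as covariate and Benjamini-Hochberg adjustment over 3390 genes. The share of all genes called was 0.0295% when FC or FR mice were set against NoFC mice, 0.0885% when NoFR mice were, and 0% for the other 3 pairs. No member reached an unadjusted p under 0.05 by edgeR or by DESeq2, where 89 to 134 genes per pair did by edgeR, and the lowest adjusted p of a member was 0.965. In simulated counts of these mice for FR against NoFC, 67% of 4-fold and 7% of 2-fold changes were recovered, so changes of 2-fold were mostly not detectable with these cells.

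The spread over mice was wide for most members. Luzp2 was at 5743 and 6690 TMM-normalized CPM in the FC mice, 4763 and 5969 in the NoFC mice, 4101, 4295 and 4521 in the FR mice and 3302, 3871, 4238 and 5051 in the NoFR mice. The FC mice of the test lay above its FR and NoFR mice and overlapped its NoFC mice. Within library 1, the only one with FC mice in this test, the FR mouse was at 4521 and the NoFR mice at 3871 and 5051, so the order held there. The FC mice left out, with 3 and 4 cells, did not follow it, at 3732 and 835 CPM before TMM scaling. On that scale the tested FC mice were at 4829 and 5499 CPM and the tested FR and NoFR mice at 2698 to 4219 CPM. The FR mouse left out, with 4 cells, was at 2951 CPM. Nlgn3 was at 59.5 and 76.9 CPM in the FC mice, below the FR mice at 97.7 to 129 CPM and the NoFR mice at 96.8 to 163 CPM, and spanned 52.1 to 125 CPM in the NoFC mice. These 2 members were apart between NoFR and FC, where 8.67% of all genes had groups that did not overlap, and between FR and FC, where 12.9% did. In addition Ctnna2 was apart between FC and NoFC (33.7% of all genes) and Luzp2 between FR and NoFC (15.1%), and no member was for NoFR and NoFC (11.3%) or for FR and NoFR (3.86%). The edgeR log2 fold change of NoFR against FC was -0.50 (SE 0.32, adjusted p = 1.00) for Luzp2 and 0.61 (SE 0.45, adjusted p = 1.00) for Nlgn3. Some of these values rest on few molecules, such as 4 Nlgn3 UMIs in FR mouse 1 and in NoFC mouse 1. The FC mice left out held 2 Nlgn3 UMIs each. Lsamp spanned 9237 to 16863 CPM in FR, 10596 to 21179 in NoFC, 10692 to 12768 in NoFR and 11577 to 15487 in FC mice, with all groups overlapping.

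In pericytes, Lsamp gave the only unadjusted differences among the members, and none passed the adjustment. The filter passed 4 members (Nlgn2, Cadm2, Lsamp and Ntm), and 0 of 4 were called in any pair over 6543 genes, where the share of all genes called was 1.07% for NoFR against NoFC, 0.443% for NoFR against FC, 0.0917% for FR against NoFR and 0% for the other 3 pairs. Lsamp was at 764, 912, 1047 and 1187 TMM-normalized CPM in the FC mice, 990, 1090, 1135 and 1261 in the NoFC mice, 905, 950, 1241 and 1245 in the NoFR mice and 959, 1167, 1354 and 1457 in the FR mice. The FR mice reached the highest levels and an FC mouse the lowest, and the groups overlapped. None of the 4 members had groups that did not overlap in any pair, a state that 3.21% (FC and NoFC), 4.91% (NoFR and NoFC), 3.50% (FR and NoFC), 4.62% (NoFR and FC), 3.04% (FR and FC) and 3.56% (FR and NoFR) of all genes showed.

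The log2 fold change of Lsamp in pericytes from FC to FR was 0.39 (SE 0.12, edgeR unadjusted p = 0.00244, adjusted p = 0.659). By edgeR it was 0.29 from FC to NoFR (SE 0.14, unadjusted p = 0.0358, adjusted p = 0.604) and -0.25 for FC against NoFC (SE 0.12, unadjusted p = 0.0432, adjusted p = 0.999). An unadjusted p under 0.05 by edgeR was reached by 315, 503 and 299 of 6543 genes in these pairs, in that order. These 3 pairs share the FC mice, so they are not separate observations. Over 22 other settings, which include leaving out each mouse, the FR against FC value lay between 0.27 and 0.56 with an unadjusted p under 0.05 in 22 of 22, and by edgeR or DESeq2 the adjusted p lay between 0.143 and 0.999. These settings reuse most of the same mice, so they are not separate observations. The setting of at least 10 cells per mouse left out no mouse in pericytes. The NoFR against FC value lay between 0.16 and 0.50 (unadjusted p under 0.05 in 13 of 22) and the FC against NoFC value between -0.42 and -0.13 (11 of 22). Leaving out single FC mice moved both, to 0.16 and -0.13 without FC mouse 1 and to 0.50 and -0.42 without FC mouse 2. Nlgn2, Cadm2 and Ntm gave no unadjusted p under 0.05, and in the simulated counts for FR against NoFC in pericytes 97% of 4-fold and 60% of 2-fold changes were recovered.

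**Figure D5:**
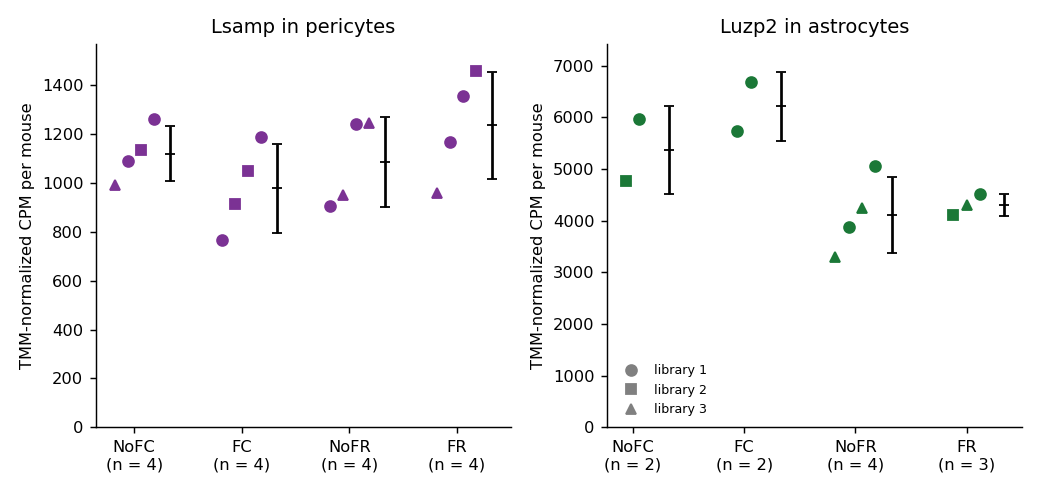
TMM-normalized CPM per mouse of Lsamp in pericytes (left, 4 mice per group) and Luzp2 in astrocytes (right, 2 to 4 mice per group), with a symbol per mouse shaped by library and mean ± SD beside it. The Lsamp groups overlap, with FR mice at 959 to 1457 and FC mice at 764 to 1187, and the Luzp2 FC mice at 5743 and 6690 are both in library 1.

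For context, 82 other genes of the same adhesion systems were read in 6 lists. Of the 51 with enough counts, 36 were at least 2-fold higher in astrocytes than in pericytes in every library and 5 were lower, with a median log2 ratio of 4.44. Over all 11439 genes with enough counts, 16.9% were higher and 20.5% lower by that rule. By list, 5 of 8 neurexins and neuroligin regulators were higher and 1 lower, as were 6 and 0 of 7 leucine-rich repeat genes, 3 and 0 of 4 SynCAM and IgLON relatives, 5 and 1 of 6 L1, NCAM and contactin genes, 8 and 3 of 16 cadherin and catenin genes, and 9 and 0 of 10 latrophilin, teneurin and receptor phosphatase genes. The highest ratios were those of Cdh10, a cadherin (7.66), and Cntn1, a contactin (7.55). The lowest were those of the calsyntenin Clstn3 (-5.11) and the protocadherin Pcdh19 (-3.87), which stood at 227 ± 21.1 CPM in pericytes and 15.5 ± 0.157 CPM in astrocytes.

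In the Agt split, 52 of these genes had enough counts, of which 2 were at least 1.5-fold higher in Agt-high cells and 2 lower in every library. Over 10865 genes these shares were 1.16% higher and 2.04% lower. Cdh22, a cadherin, had the highest log2 ratio at 2.24 (9.50 against 2.16 CPM), followed by Pcdh19 at 0.85, which missed the threshold in 1 library. Adgrl2, a latrophilin, had the lowest at -0.97 (31.8 against 62.1 CPM), followed by Cdh4 at -0.70, which also missed it in 1 library. The remaining called genes were Lrrtm2 (0.77) and the L1-family gene Nfasc (-0.67), named because the counts were small. In the tests between groups, 0 of 41 of these genes were called in astrocytes, where 0% to 0.0885% of all 3390 genes were called per pair. In pericytes 1 of 21 was called, the cadherin Cdh2 in NoFR against NoFC (log2 fold change 0.59, SE 0.15, edgeR adjusted p = 0.0384). In that pair 1.07% of all 6543 genes were called, the highest share of the 6 pairs in pericytes. Cdh2 was at 427 to 810 CPM in the NoFR and 393 to 495 CPM in the NoFC mice, so the groups overlapped. It was named after its value was seen, and no other setting is given for it.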

How the data were processed

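Single-cell RNA was measured in 3 gene libraries with 3 matched hashtag libraries. The deposited matrices hold UMI counts per gene and barcode, which the authors made by aligning reads to mm10 (GENCODE vM23, Ensembl 98) with Cell Ranger, given as version 3.0 in the submitters' processing notes and as cellranger 7.0.0 in the matrix headers; whether intronic reads were counted is not stated. All 13546 deposited barcodes were used, with no filter on doublets beyond the class rule. Counts were summed per class and library and scaled to CPM; log2 ratios are means ± SD over 3 libraries, without a test. A gene counted as tested at a mean of at least 5 CPM.

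Counts summed per mouse were tested with edgeR 4.0.16 (TMM, filterByExpr, glmQLFTest, library as covariate, R 4.3.3), with Benjamini-Hochberg adjustment over all genes of a pair and a threshold of 0.05; DESeq2 1.42.0 was an alternative. The fits were tested on simulated data. Depth per library was 31700569 to 42350059 UMIs, and shares and CPM carry counting error only within a library. Hashtags that the deposited table does not list (14 with calls) were not used. The members and lists were chosen with earlier results of these data known. All members are named; a fold change between groups is given singly at an unadjusted p under 0.05 (and for members whose groups did not overlap), and other adhesion genes where they hold the 2 highest or 2 lowest log2 ratios, with exceptions stated. Genome positions come from GENCODE vM21 and promoter windows from RefSeq, both on GRCm38.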

Additional observations from a re-analysis of the deposited data

Results flagged for a closer look

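In 2 of 24 combinations of member, cell class and group with 4 mice, 1 mouse lay far from the other 3. Chance gives about 1 in 20 for a single combination, but the combinations share mice and are not independent. Cadm2 in the astrocytes of NoFR mouse 2 was at 3718 TMM-normalized CPM (12 cells, 389 UMIs), above the other NoFR mice at 3400 to 3433. Cadm2 in the pericytes of FR mouse 2 was at 37.9 CPM, above the other FR mice at 19.4 to 22.5, on 8 UMIs in 45 cells.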

How the results depend on the processing

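The 8 members higher in astrocytes stayed past 2-fold, and 0 members were called between groups in either class, under every alternative run. The pericyte level of Lsamp, 9.22% of the astrocyte level, was 9.66% as a mean of per-cell CPM and 7.59% with TMM scaling. The count of members past 1.5-fold in the Agt split, 1, was 2 with a mean of per-cell CPM, 2 with thinned cells and 2 with Agt at 5 or more UMIs, and 1 to 2 when a library was left out, with Ctnna2 added without library 2. The count of other adhesion genes lower in Agt-high cells, 2, was 1 with the filter on genes and mitochondrial UMIs, 1 with TMM scaling and 4 with Agt at 5 or more UMIs, where the count of higher genes, also 2, was 5. The causes were not tested. Of the members' single values, 21 log2 ratios of the Agt split moved by more than the spread over libraries and 87 did not, with 9 and 63 for the class ratios and 7 and 57 for the pericyte percents; the 66 Lsamp fold changes between groups kept their direction and an adjusted p over 0.05. With every mouse of at least 1 astrocyte, an alternative chosen after seeing the data, 2 values of 7 members had an unadjusted p under 0.05. No paired analysis was possible because each mouse belongs to 1 group and the mouse and library numbers pair no animals. Hashtag calls, which 5.09% of astrocytes had, limit the group tests in astrocytes, where 5 mice had under 5 cells. Low counts limit the pericyte values of Ctnna2, Nrcam and Nlgn3, which rest on 18 to 69 UMIs.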
